A study of Mus musculus with 9 samples.

Results

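TGF-beta signalling was followed at the level of its transcripts in LT-HSCs (haematopoietic stem cells with long-term activity), through 10 genes taken by symbol from a count table of 21939 genes: the ligand Tgfb1, the receptors Tgfbr1 and Tgfbr2, the co-receptor Eng, the signal transducers Smad2, Smad3 and Smad4, the inhibitor Smad7, and the co-repressors Ski and Skil. All 10 were in the table and all 10 passed the filter on low counts, with between 56.6 counts (Tgfb1 in young 1) and 17263 counts (Skil in an inhibitor-treated library). Cells came from bone marrow of C57BL/6 mice and were sorted for Sca1+ and cKit+ and against lineage markers, CD34 and Flt3. The 9 libraries make up 3 groups of 3: young (mice of 10 to 16 weeks), aged (mice over 80 weeks), and aged+Ri (cells of mice over 80 weeks exposed to 100 µM Rhosin, which inhibits RhoA, a small GTPase of the cytoskeleton). Cells of all 3 groups, untreated ones included, were kept for 16 h at 3% oxygen and 5% carbon dioxide, in a salt solution that held 10% serum, before RNA was taken. The labels call the libraries biological replicates without giving the number of mice in each, so that p-values measure the spread between these samples.

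TGF-beta 1 is secreted in a latent form and, once active, brings TGFBR2 and TGFBR1 together. TGFBR1 then phosphorylates SMAD2 and SMAD3, which join SMAD4 and enter the nucleus, where SKI and SnoN (the product of Skil) hold SMAD target genes in check. SMAD7 blocks the receptor, and endoglin, the product of Eng, tunes ligand binding. In bone marrow the pathway is known for keeping haematopoietic stem cells quiescent, and endoglin is a known surface protein of these cells.

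Library totals were between 34358101 and 72503142 counts, and levels are given as CPM, counts scaled to library size after TMM correction for library composition. The sort genes Kit and Ly6a (the Sca1 gene) were at 87.3 to 655 and 222 to 717 CPM over the 9 libraries. Kit was at 448, 407 and 429 CPM in aged and 87.3, 325 and 166 CPM in aged+Ri 1, 2 and 3, without overlap. Procr, another LT-HSC marker, was higher, at 144.5, 80.9 and 76.4 CPM in aged and 409, 181 and 217 CPM in aged+Ri libraries. Without overlap, 1 of the 11 LT-HSC markers was higher and 2 were lower, beside 1191 and 1310 of all 15127 genes. Of 11 tested LT-HSC markers, 3 had a positive and 8 a negative log2 change in aged+Ri against aged, beside 7135 and 7992 of all genes. At an unadjusted p under 0.05, 1 was higher and 1 lower, beside 4.24% and 4.89% of all genes. Cd34 was at 7.96 to 95.7 CPM and Flt3 at 0.0565 to 21.8 CPM, although the sort selected against both proteins. Young libraries stood apart from the other 6 by holding a count for more genes, 20129 to 21213 against 15024 to 17987. Transcripts of the Y-linked gene Ddx3y were at 65.7 CPM in young 2 and 183 in young 3 and at most 0.0282 in the other 7 libraries, and the B-cell gene Iglc2 reached 13370 CPM in young 1. Marker lists for neutrophils and for T, NK and B cells had summed levels of 39.3 to 68.5 and 68.2 to 138 CPM in aged+Ri libraries, against 219 to 7883 and 163 to 759 in aged ones, with 4 of 8 and 7 of 11 tested genes lower at an unadjusted p under 0.05, as were 4.89% of all genes tested. The part of these differences in the results below was not tested. In bulk samples, fewer cells of a type and less RNA per cell cannot be told apart.

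Promoters of 6 of the genes (Tgfb1, Tgfbr1, Tgfbr2, Eng, Smad3 and Ski), matched by symbol in RefSeq for GRCm38.p6, were searched in 7 windows of 300 bases, of which Tgfbr1 has 2 and each other gene 1. The sequence GGCGCC holds the GC-rich element GGCGC that SMAD proteins are known to bind, and it was searched on both strands together with the palindromic SMAD box GTCTAGAC and the AP-1 motif TGANTCA. One window of the receptor gene Tgfbr1 and the window of the co-repressor gene Ski held GGCGCC once each, and they are shown because they are the only ones of the 7 windows with any of the 3 motifs. The other Tgfbr1 window, chr4:47385966-47386265 on the plus strand, held 0 matches. The match is in capitals, and the windows shown are chr4:47352972-47353271 on the plus strand for Tgfbr1 and chr4:155222486-155222785 on the minus strand for Ski.
Tgfbr1: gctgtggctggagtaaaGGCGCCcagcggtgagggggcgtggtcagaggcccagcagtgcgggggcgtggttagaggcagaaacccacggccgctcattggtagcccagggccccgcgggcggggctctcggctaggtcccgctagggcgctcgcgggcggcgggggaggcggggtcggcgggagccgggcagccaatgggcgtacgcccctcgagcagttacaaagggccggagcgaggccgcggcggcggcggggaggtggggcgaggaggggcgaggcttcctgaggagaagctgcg
Ski: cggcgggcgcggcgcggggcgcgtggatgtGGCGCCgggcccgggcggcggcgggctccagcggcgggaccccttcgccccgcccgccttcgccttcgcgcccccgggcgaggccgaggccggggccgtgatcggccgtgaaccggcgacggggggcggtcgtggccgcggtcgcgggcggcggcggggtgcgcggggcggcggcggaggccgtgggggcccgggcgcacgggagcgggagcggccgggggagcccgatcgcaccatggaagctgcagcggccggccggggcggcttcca
Among all 32851 promoter windows, 11.9% held GGCGCC, 0.213% the SMAD box and 7.81% the AP-1 motif. A match describes the letters in the window only. The shorter element GGCGC was not searched by itself. It also occurs, unmarked, elsewhere in both windows shown and in the Tgfb1 window, so the matches do not tell which windows hold it.

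In the GRCm38 annotation (GENCODE M21), Tgfb1 lies on chromosome 7 at 25687002 to 25705077, Tgfbr1 on chromosome 4 at 47353222 to 47414931, Tgfbr2 on chromosome 9 at 116084293 to 116175360 and Eng on chromosome 2 at 32646595 to 32682669. Chromosome 18 holds 3 of the genes: Smad2 at 76241580 to 76310963, Smad4 at 73639009 to 73703780 and Smad7 at 75367529 to 75395935. Smad3 lies on chromosome 9 at 63646767 to 63757994, Ski on chromosome 4 at 155154075 to 155222592 and Skil on chromosome 3 at 31095058 to 31122577. The gene body of Eng overlaps Fpgs on the opposite strand, and that of Smad4 a processed pseudogene on the opposite strand. Whether strand was used in counting is not given, which makes the counts of both uncertain to that degree. Counts that are not whole numbers, which can come from reads shared with other features, were found for Tgfb1 in 6 libraries, for Ski in 5, and for Tgfbr1, Tgfbr2, Smad7 and Skil in 1 each.

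Per kilobase of annotated exon, Smad4 and Skil were the most abundant of the 10 transcripts in every group. In young cells Smad4 was at 37.2 ± 4.15 and Skil at 29.7 ± 7.32 CPM per kb (mean ± SD, n = 3 in every group), with ranges of 34 to 41.9 and 22.2 to 36.8 that overlap. Another 6 genes followed between 9.83 ± 5.07 (Smad3) and 4.76 ± 1.35 CPM per kb (Eng), and neighbours in that order did not differ beyond their spread. Smad2 at 2.51 ± 0.281 and the ligand gene Tgfb1 at 1.23 ± 0.864 CPM per kb were last. In aged cells Skil (15.3 ± 6.11) and Smad4 (14.6 ± 3.24) again led, the next 7 genes lay between 9.38 ± 2.17 (Smad7) and 5.96 ± 1.33 CPM per kb (Tgfbr2), and Tgfb1 was last at 2.83 ± 1.02. In aged+Ri cells Skil was at 28.9 ± 2.56 and Smad4 at 18.2 ± 2.78 CPM per kb, and their ranges did not overlap. Tgfb1 was last there too, at 3.07 ± 0.88 CPM per kb.

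**Figure D1:**
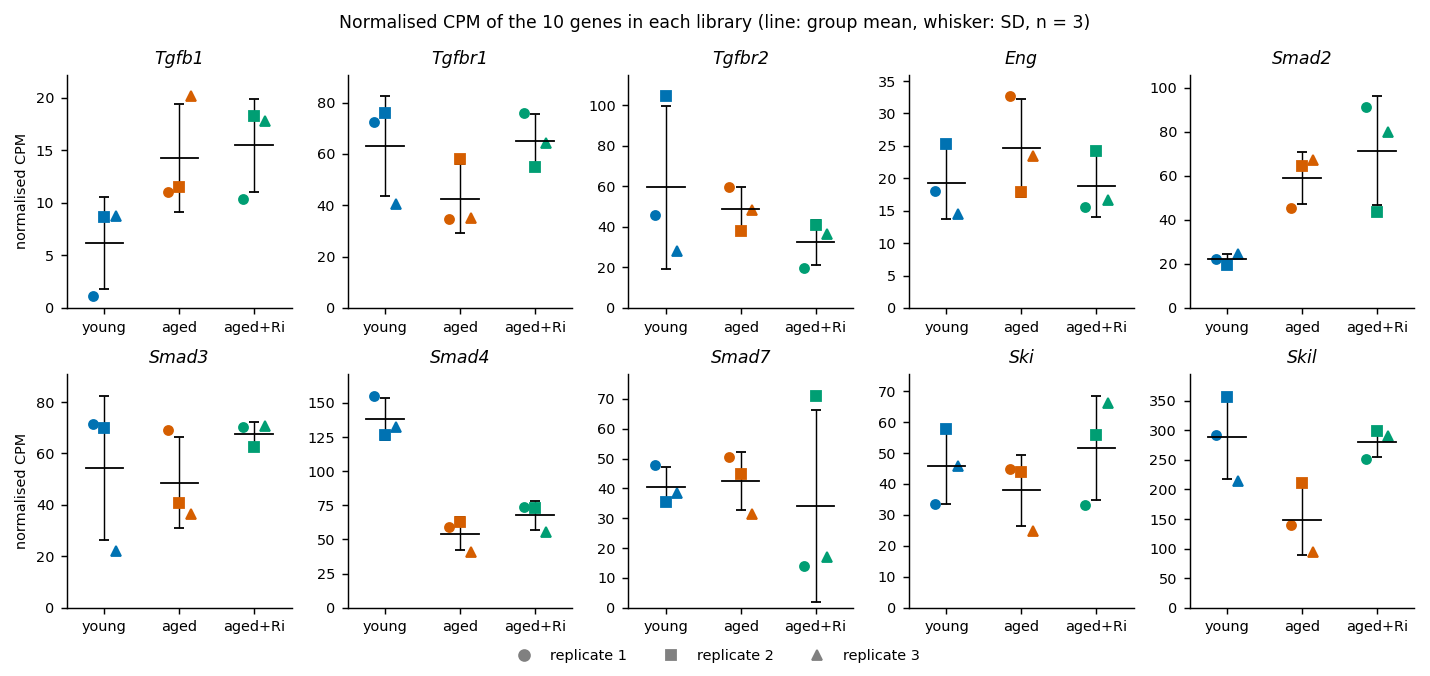
Normalised CPM (y axis, linear from 0) of each of the 10 genes in the 9 libraries, grouped on the x axis as young, aged and aged+Ri, with a marker shape for each replicate number, a line for the group mean and a whisker for the SD (n = 3). Smad4 lies between 126 and 155 CPM in young and between 40.6 and 74 in the other 6 libraries, and Smad2 between 19.5 and 24.5 in young and between 43.5 and 91.2 in the others.

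The comparison of aged with young cells asks how these transcripts vary with age. No member passed the threshold over all 15127 genes tested, where edgeR's quasi-likelihood test called 0.0331% of genes. The members with the largest separation were Smad4 and Skil, lower in aged cells, and Smad2 and Tgfb1, higher in aged cells. In these 4 of 10 genes the ages were fully separated, with no overlap between libraries, against 24.7% of all genes tested. At an unadjusted p under 0.05 there were 1 higher member, Smad2, and 2 lower members, Smad4 and Skil, beside 6.08% of all genes higher and 10.1% lower. The median log2 change of the 10 genes was -0.22, and that of all genes tested was -0.13.

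Smad4, the partner shared by all receptor-activated SMADs, was at 155, 126 and 132 CPM in young 1, 2 and 3 and at 59.1, 63.1 and 40.6 CPM in aged 1, 2 and 3. Every aged library lay below every young one by a factor larger than the spread within either group. The fitted log2 change was -1.35 ± 0.33 (SE; 95% interval -2.06 to -0.63; edgeR adjusted p = 0.173). Between 1 library of each age, the log2 change was -1.0 within sequencing batch 2 and -1.71 within batch 3, and the batches are those the labels name. Young 1 is labelled with batches 1 and 3 together, so it enters no comparison within a batch.

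Smad2, one of the transducers that TGFBR1 phosphorylates, was at 22, 19.5 and 24.5 CPM in young 1, 2 and 3 and at 45.4, 64.3 and 67.3 CPM in aged 1, 2 and 3. The aged libraries were all higher, and the lowest aged value was above the highest young one. The fitted log2 change was 1.42 ± 0.41 (SE; 95% interval 0.53 to 2.31; edgeR adjusted p = 0.191), with 1.72 in batch 2 and 1.46 in batch 3. With DESeq2 both Smad2 (adjusted p = 0.0243) and Smad4 (adjusted p = 0.000282) passed, 2 of 10 members beside 5.35% of the genes that DESeq2 gave an adjusted p. Where young 1 alone stood for the young group, the log2 changes of Smad2 and Smad4 were 1.49 and -1.46. Their signs add nothing to the separation above, which already places young 1 on that side of every aged library.

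Smad3, the other receptor-activated transducer, was at 71.5, 69.8 and 22.1 CPM in young 1, 2 and 3 and at 69, 40.7 and 36.3 in aged 1, 2 and 3. The groups overlapped, with young 3 the lowest of all 9 libraries (log2 -0.16 ± 0.47, 95% interval -1.17 to 0.85; edgeR adjusted p = 0.904). Within batch 2 the change was -0.78 and within batch 3 it was 0.72, so its sign differed between batches.

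The ratio of Smad2 to Smad4 within a library does not depend on how that library is scaled. Per kb of exon it was 0.0599, 0.0655 and 0.0781 in young 1, 2 and 3. It was 0.325, 0.431 and 0.701 in aged 1, 2 and 3. In aged+Ri 1, 2 and 3 the ratio was 0.521, 0.252 and 0.606, above every young library and overlapping the aged ones. Of the summed per-kb level of Smad2, Smad3 and Smad4, Smad4 made up 75.6% ± 7.53 in young, 48.2% ± 5.16 in aged and 47.3% ± 7.09 in aged+Ri libraries (n = 3 each). Smad2 made up 5.17% ± 1.21, 23% ± 7.52 and 20.9% ± 6.13 of that sum in the same order. These ratios were formed after the single genes had been seen and carry no test.

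**Figure D2:**
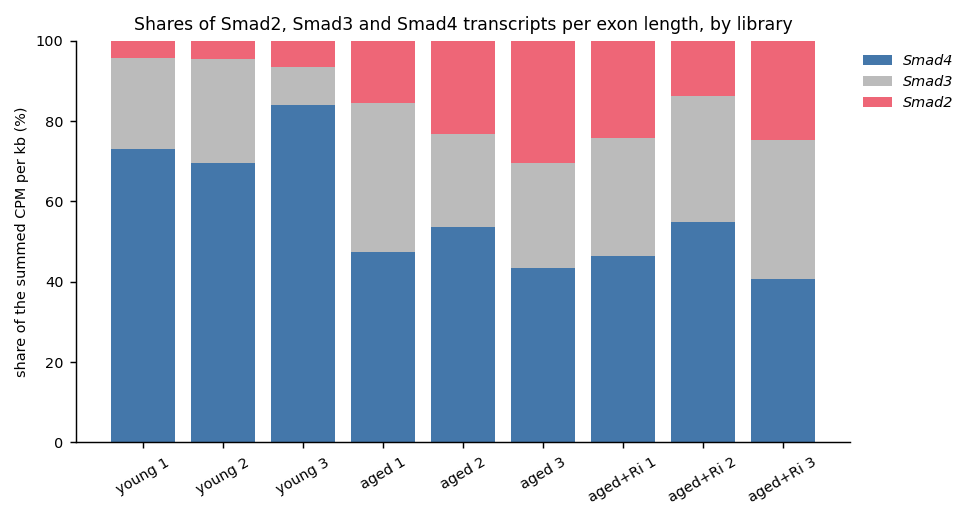
Share of each of Smad4, Smad3 and Smad2 (y axis, percent of their summed CPM per kb of exon) in the 9 libraries on the x axis. Smad4 takes 69.6% to 84.1% in the 3 young libraries and 40.7% to 54.8% in the other 6.

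Skil, which encodes the SMAD co-repressor SnoN, was at 292, 357 and 215 CPM in young 1, 2 and 3 and at 141, 211 and 93.8 CPM in aged 1, 2 and 3. The highest aged library came close to the lowest young one without reaching it. The log2 change was -0.95 ± 0.34 (SE; 95% interval -1.68 to -0.23; edgeR adjusted p = 0.223), with -0.75 in batch 2 and -1.20 in batch 3. Its relative Ski, the founding member of this co-repressor family, was at 33.5, 57.8 and 45.8 CPM in young and 44.9, 43.9 and 24.8 CPM in aged 1, 2 and 3. The values of Ski overlapped between the ages (log2 -0.27 ± 0.44, 95% interval -1.22 to 0.68; edgeR adjusted p = 0.808). Smad7, the inhibitor that SMAD signalling itself induces, was at 47.9, 35.6 and 38.4 CPM in young and at 50.6, 45 and 31.6 CPM in aged 1, 2 and 3. Its log2 change of 0.06 ± 0.59 had a 95% interval from -1.20 to 1.32 (edgeR adjusted p = 0.974), which leaves room for a change of more than 1 log2 unit either way.

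Among receptors, Tgfbr1 (the kinase that phosphorylates SMAD2 and SMAD3) was at 72.7, 76.1 and 40.6 CPM in young 1, 2 and 3 and at 34.7, 58.1 and 35.1 CPM in aged 1, 2 and 3. Tgfbr2, which binds the ligand first, was at 45.7, 105 and 28 CPM in young and 59.9, 38.1 and 48.3 CPM in aged libraries. Young 2 was the highest and young 3 the lowest of the 6 for Tgfbr2, so its young group spanned all aged values. The log2 changes were -0.57 ± 0.40 for Tgfbr1 and -0.29 ± 0.51 for Tgfbr2 (edgeR adjusted p = 0.50 and 0.830). Without young 2 the log2 change of Tgfbr2 was 0.47, the opposite sign.

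Eng was at 18.1, 25.2 and 14.5 CPM in young 1, 2 and 3 and at 32.7, 17.9 and 23.4 CPM in aged 1, 2 and 3, and the groups overlapped (log2 0.36 ± 0.54, 95% interval -0.81 to 1.53; edgeR adjusted p = 0.790). Endoglin is also made by endothelial cells. A list of 10 endothelial markers summed to 89.8 to 228 CPM in young and 258 to 353 CPM in aged libraries, and 7 of its 9 tested genes had a positive and 2 a negative log2 change. At an unadjusted p under 0.05, 2 were higher and 0 lower, beside 6.08% and 10.1% of all genes. The median log2 change of the 9 was 0.29, against -0.13 for all genes tested. The part of endothelial RNA in these Eng values was not tested.

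Tgfb1 was at 1.15, 8.67 and 8.73 CPM in young 1, 2 and 3 and at 11, 11.6 and 20.2 CPM in aged 1, 2 and 3. Young 1 was far below the other 8 libraries, at 57 rounded counts (95% Poisson interval 0.873 to 1.49 CPM, which covers counting error only). The log2 change was 1.21 ± 0.82 (SE; 95% interval -0.57 to 2.98; edgeR adjusted p = 0.482). Without young 1 it was 0.66, and it was 3.69 where young 1 alone stood for the young group. Megakaryocytes and macrophages also make Tgfb1. The summed levels of their marker lists were 242 to 552 and 89.6 to 249 CPM in young and 274 to 620 and 96.9 to 559 CPM in aged libraries. Of the 8 tested megakaryocyte and platelet markers 0 were higher and 1 was lower at an unadjusted p under 0.05. Of the 9 macrophage and monocyte markers 1 was higher and 1 lower, beside 6.08% and 10.1% of all genes.

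**Figure D3:**
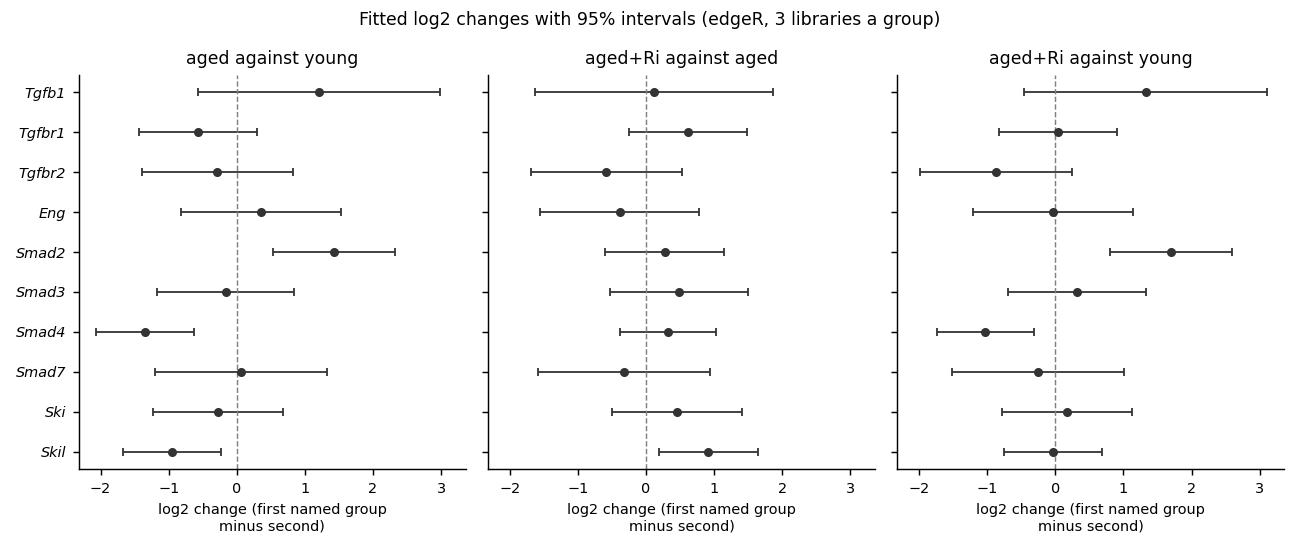
Fitted log2 change (x axis) of each of the 10 genes with its 95% interval from edgeR, in 3 panels for aged against young, aged+Ri against aged and aged+Ri against young; the dashed line marks 0. Intervals of Smad4, Skil and Smad2 leave out 0 in the first panel, that of Skil in the second, and those of Smad2 and Smad4 in the third, before any adjustment for the number of genes tested.

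Aged cells with Rhosin were compared with aged cells without it to ask whether inhibiting RhoA is accompanied by changes in the same genes. No member passed, nor did any gene of the table (edgeR called 0 genes, or 0%, while 1382 genes, 9.14%, had an unadjusted p under 0.05), and 0 of the 10 were among the 321 genes that DESeq2 called (2.36%) or the 55 of limma-voom (0.364%). Skil was the 1 member whose groups did not overlap, higher with the inhibitor, beside 7.87% of all genes higher without overlap. It was also the 1 member higher at an unadjusted p under 0.05, beside 4.24% of all genes, and 0 members were lower, beside 4.89%. The log2 change was positive for 7 of the 10 genes, and their median was 0.30 against -0.06 for all genes tested. This comparison shares the aged libraries with the comparison by age.

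Skil was at 252, 298 and 290 CPM in aged+Ri 1, 2 and 3, against 141, 211 and 93.8 CPM in aged 1, 2 and 3. The log2 change was 0.91 ± 0.34 (SE; 95% interval 0.19 to 1.64; edgeR adjusted p = 0.445). Within batch 1 it was 0.84 and within batch 2 it was 0.48, where 2 inhibitor libraries stand against 1 aged library. Aged 3, the lowest for Skil, was from batch 3, which held no aged+Ri library. Ski was at 33.2, 55.7 and 66.2 CPM with the inhibitor, a range that takes in aged 1 and aged 2 (log2 0.45 ± 0.44, 95% interval -0.51 to 1.40; edgeR adjusted p = 0.854). Tgfbr1 was at 75.8, 55 and 64.4 CPM in aged+Ri 1, 2 and 3, and only aged 2, at 58.1 CPM, reached into that range. Its log2 change was 0.61 ± 0.40 (95% interval -0.26 to 1.48; edgeR adjusted p = 0.712), with 1.13 in batch 1 and 0.03 in batch 2.

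Smad7 varied widely among the inhibitor libraries, at 13.9 CPM in aged+Ri 1, 71.1 in aged+Ri 2 and 16.9 in aged+Ri 3. The counts behind these were 496, 4118 and 597, with 95% Poisson intervals of 12.7 to 15.2, 69 to 73.3 and 15.5 to 18.3 CPM, which cover counting error and not the spread between samples. Aged+Ri 2 and aged+Ri 3 share sequencing batch 2. Aged+Ri 2 was above all 6 untreated libraries and both others were below all of them. The log2 change against aged was -0.32 ± 0.59 (edgeR adjusted p = 0.949). Without aged+Ri 2 it was -1.45, and without aged+Ri 1 it was 0.05. Aged+Ri 2 also had the lowest Smad2 of its group, at 43.5 CPM against 91.2 and 79.8, and the highest Eng, at 24.3 against 15.5 and 16.7.

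With the inhibitor Smad4 was at 74, 73.1 and 55.7 CPM in aged+Ri 1, 2 and 3, and only aged+Ri 3 was within the aged range (log2 0.32 ± 0.33, 95% interval -0.39 to 1.02; edgeR adjusted p = 0.866). Smad2 had a log2 change of 0.28 ± 0.41 (95% interval -0.60 to 1.15; edgeR adjusted p = 0.932). Smad3 was at 70.2, 62.4 and 70.5 CPM, close together, while aged 1 at 69 lay inside that range (log2 0.48 ± 0.47; edgeR adjusted p = 0.854). Tgfbr2 read 19.9, 40.8 and 36.7 CPM, a log2 change of -0.59 ± 0.51 (edgeR adjusted p = 0.826). Eng had a log2 change of -0.39 ± 0.54 (edgeR adjusted p = 0.924), and the summed endothelial list was at 72.1 to 233 CPM with the inhibitor against 258 to 353 without. Of its 9 tested genes, 1 had a positive and 8 a negative log2 change. At an unadjusted p under 0.05, 0 were higher and 1 was lower, beside 4.24% and 4.89% of all genes. From the same list, Cdh5 was at 0.0281, 2.07 and 0 CPM and Kdr at 0.730, 30.7 and 4.29 CPM in aged+Ri 1, 2 and 3. In aged 1, 2 and 3 Cdh5 was at 0.109, 0.0181 and 0.0636 CPM and Kdr at 20.1, 52.65 and 33.9 CPM. Both genes overlapped between these groups. The part of endothelial RNA in the Eng values was not tested. Tgfb1 read 10.4, 18.3 and 17.8 CPM, a log2 change of 0.12 ± 0.81 (edgeR adjusted p = 0.991). Its 95% interval, -1.63 to 1.87, leaves changes of more than 1 log2 unit in either direction possible. The megakaryocyte and platelet list summed to 96.3 to 213 CPM with the inhibitor against 274 to 620 without. Of its 8 tested genes, 0 were higher and 4 lower at an unadjusted p under 0.05, beside 4.24% and 4.89% of all genes. The macrophage and monocyte list summed to 52.7 to 118 CPM with the inhibitor against 96.9 to 559 without. Of its 9 tested genes, 1 was higher and 2 were lower, beside the same shares of all genes. The part of these cells in the Tgfb1 values was not tested.

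**Figure D4:**
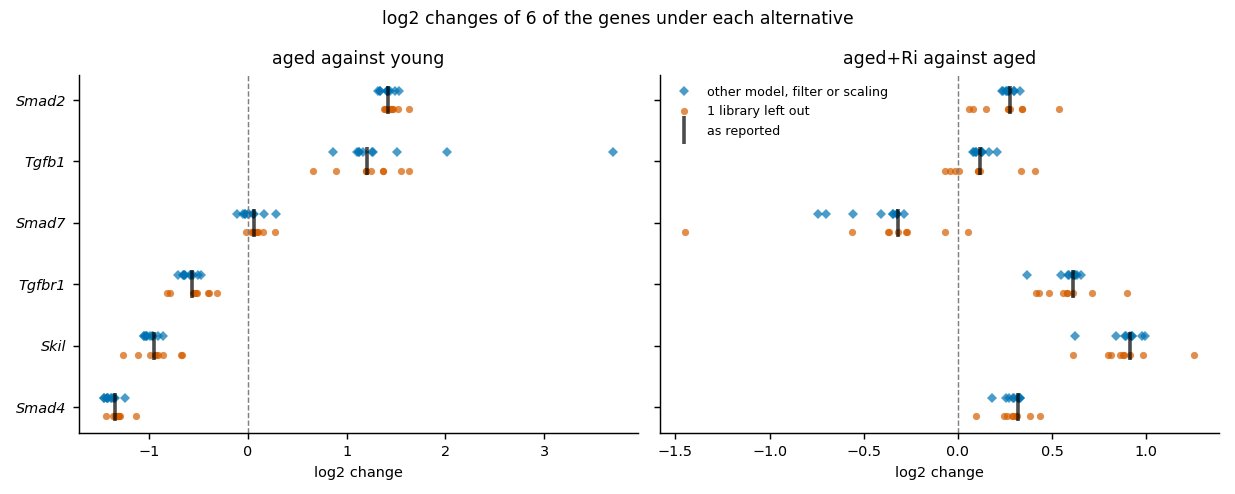
log2 change (x axis) of Smad2, Tgfb1, Smad7, Tgfbr1, Skil and Smad4 as reported (black bar), with another model, filter, scaling or set of libraries (diamonds) and with 1 library left out (circles), for aged against young (left) and aged+Ri against aged (right). Smad2 and Smad4 keep their sign in every alternative on the left, from 1.32 to 1.63 and from -1.46 to -1.13, and the Tgfb1 diamond at 3.69 is the fit in which young 1 alone stands for the young group.

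Inhibitor-treated aged cells were also set against young cells, which shares libraries with both comparisons above. No member passed the threshold, where edgeR called 219 genes, 1.45%. Smad2 came closest (log2 1.70 ± 0.42, 95% interval 0.80 to 2.60; edgeR adjusted p = 0.0593) and had an adjusted p = 0.0495 without young 3. Smad4 had a log2 change of -1.03 ± 0.33 (95% interval -1.74 to -0.32; edgeR adjusted p = 0.103). Smad2 and Tgfb1 were higher and Smad4 was lower without overlap, 3 of 10 genes beside 32.3% of all genes tested. With DESeq2, Smad2 (adjusted p = 0.00155) and Smad4 (adjusted p = 0.00616) passed, where 12.6% of the genes with an adjusted p did. Skil differed by -0.04 ± 0.33 on the log2 scale, with a 95% interval of -0.76 to 0.68 (edgeR adjusted p = 0.955), and Tgfbr1 by 0.04 ± 0.40, with an interval of -0.82 to 0.91 (edgeR adjusted p = 0.958). Side by side, Skil averaged 288 ± 70.9 CPM in young, 149 ± 59.2 in aged and 280 ± 24.8 in aged+Ri libraries, and Tgfbr1 63.1 ± 19.6, 42.6 ± 13.4 and 65.1 ± 10.4 CPM (n = 3 each).

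Beyond the 10 genes, 6 lists of pathway genes held 100 symbols, of which 99 were in the table and 92 passed the filter. For aged against young 0 of the 92 were called. Of them 30 had positive and 62 negative log2 changes, beside 6857 and 8270 of all 15127 genes, and the median was -0.42 against -0.13 for all genes. At an unadjusted p under 0.05 there were 2 higher and 15 lower, beside 6.08% and 10.1% of all genes. Among the 15 were Tgfb2, Itgb6, Smad9, Fstl3 and Ccn2, which had at most 2 counts in any aged library. Young libraries held a count for more genes of the whole table, and the part of this in the list was not tested. For aged+Ri against aged 0 were called. There 56 were positive and 36 negative, beside 7135 and 7992 of all genes, with a median of 0.28 against -0.06 for all genes. At an unadjusted p under 0.05, 11 were higher and 4 lower, beside 4.24% and 4.89% of all genes. Tgfb2, Smad9 and Fstl3, with few counts, were among the 11. Both comparisons use the aged libraries. For aged+Ri against young 1 of the 92 was called, beside 1.45% of all genes.

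**Figure D5:**
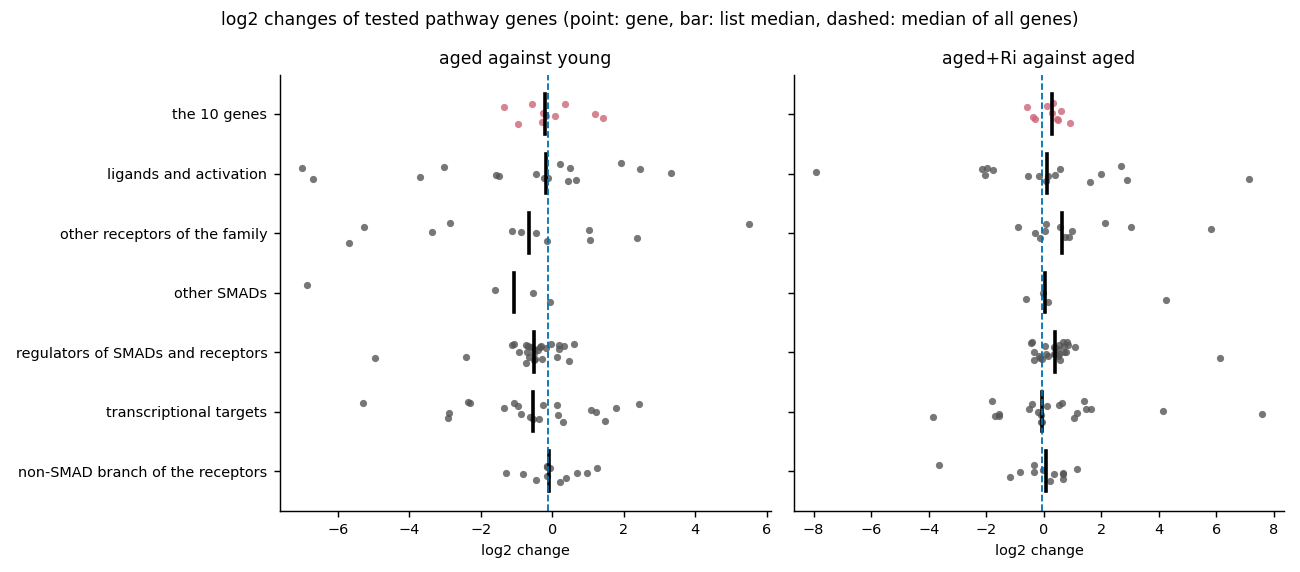
log2 change (x axis) of each tested gene (points) of the 10 genes and of the 6 pathway lists (rows), for aged against young (left) and aged+Ri against aged (right). Black bars are list medians and the dashed line is the median of all genes tested; the list of regulators has a median of -0.51 on the left and 0.40 on the right.

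That gene was Bambi, which encodes a pseudoreceptor without kinase activity that dampens TGF-beta and BMP signals. Bambi was at 0.162, 0.204 and 0.285 CPM (8, 8 and 10 counts) in young 1, 2 and 3. It was at 6.47, 4.70 and 18.4 CPM in aged and at 9.57, 6.55 and 15.4 CPM in aged+Ri 1, 2 and 3. All 6 libraries of aged mice were far above all young ones, with or without the inhibitor. Bambi rose in aged+Ri against young cells by 5.59 ± 1.11 on the log2 scale (SE; 95% interval 3.20 to 7.97; edgeR adjusted p = 0.0300). The change against young was 5.50 ± 1.10 in aged cells without the inhibitor, where it did not pass in edgeR (adjusted p = 0.129) and passed with DESeq2 (adjusted p = 3.305e-10). Within batch 2 the log2 change against young was 5.55 with the inhibitor and 4.46 without it. The call was lost without young 1 (adjusted p = 0.0657), aged 1 (0.0524), aged 3 (0.0517), aged+Ri 1 (0.0962) or aged+Ri 3 (0.140), and with only the 2 groups compared (0.0802) or the sequencing batch as a covariate, which drops young 1 (0.0796). In these fits the log2 change was between 5.19 and 5.95.

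Of the other receptors of the family, 12 of 13 were tested. At an unadjusted p under 0.05 there were 1 higher and 4 lower in aged against young, and 1 higher and 0 lower with the inhibitor, beside 6.08% and 10.1% of all genes by age and 4.24% and 4.89% with the inhibitor. By age 4 had a positive and 8 a negative log2 change. Some had few counts, such as Cd109 (49, 8 and 33 in young, 0, 2 and 0 in aged) and Acvr1c (32, 15 and 26, then 4, 3 and 8). Young libraries held a count for more genes of the whole table, and the part of this in the counts by age was not tested. Bmpr2, a type II receptor for BMPs, was at 257, 321 and 126 CPM in young and 143, 101 and 80.3 CPM in aged libraries, with overlap (edgeR adjusted p = 0.221). Acvr2a, a type II receptor for activins, was at 5.56, 4.90 and 2.81 CPM in aged and 16.8, 18.8 and 22.1 CPM in aged+Ri libraries, without overlap (edgeR adjusted p = 0.549). In the list of ligands and their activation, Itgav, the integrin chain that takes part in releasing active TGF-beta, was at 71.4, 63.5 and 14.8 CPM in aged and 258, 119 and 212 CPM in aged+Ri libraries. Every inhibitor library was above every aged one (log2 1.98 ± 0.54; edgeR adjusted p = 0.335, DESeq2 adjusted p = 0.048), and young libraries were at 141, 199 and 83.4 CPM. Tgfb2, another ligand gene, was barely present, with 22, 9 and 10 counts in young and 0 in each aged library, and 30, 11 and 1 with the inhibitor.

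Of the other SMADs all 4 were tested, and Smad9, a transducer for BMPs, had at most 22 counts in any library and 0 in each aged one. Smad6, an inhibitor of BMP signals, was at 11.2, 7.14 and 2.45 CPM in young and 4.59, 0.795 and 1.49 CPM in aged libraries, where the groups overlapped (edgeR adjusted p = 0.540). Among 27 tested regulators of SMADs and receptors, 21 had a negative log2 change in aged against young, beside 8270 of all 15127 genes. With the inhibitor 20 had a positive one, beside 7135 of all genes, and that comparison shares the aged libraries. At an unadjusted p under 0.05 the counts were 0 higher and 2 lower by age, and 2 higher and 0 lower with the inhibitor, beside 6.08%, 10.1%, 4.24% and 4.89% of all genes in the same order. Rnf111, a ubiquitin ligase that removes SMAD7, Ski and SnoN proteins, was at 151, 171 and 109 CPM in young and 65, 81 and 57.7 CPM in aged libraries (log2 -1.08 ± 0.34; edgeR adjusted p = 0.205, DESeq2 adjusted p = 0.0145). Fkbp1a, which encodes FKBP12, a protein that keeps TGFBR1 inactive without ligand, was at 167, 152 and 159 CPM in aged and 269, 242 and 335 CPM in aged+Ri libraries. Those groups did not overlap (log2 0.82 ± 0.34; edgeR adjusted p = 0.488), and against young cells, at 160, 78.6 and 75.7 CPM, the inhibitor libraries had an edgeR adjusted p = 0.0554. That last difference of Fkbp1a passed with DESeq2 (adjusted p = 0.00671), limma-voom (0.0381), edgeR's newer quasi-likelihood method (0.047), no filter (0.0424) and without young 1 (0.0437). It did not pass in the other alternatives. DESeq2 called 12.6% of the genes with an adjusted p there.

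Among 21 tested transcriptional targets, 1 was higher and 2 were lower in aged against young cells at an unadjusted p under 0.05, beside 6.08% and 10.1% of all genes. With the inhibitor 5 were higher and 1 lower, beside 4.24% and 4.89%. Klf10, an early response gene of TGF-beta, was at 99.8, 120 and 104 CPM in young and 65.2, 42.1 and 20.6 CPM in aged libraries (log2 -1.34 ± 0.42; edgeR adjusted p = 0.205, DESeq2 adjusted p = 0.0351). Hes1, a repressor known best as a Notch target, was at 44.5, 61.4 and 37.2 CPM in aged and 180, 92.2 and 176 CPM in aged+Ri libraries (log2 1.65 ± 0.44; edgeR adjusted p = 0.335, DESeq2 adjusted p = 0.0368). Cdkn2b, the gene of the cell-cycle inhibitor p15, had 0, 0 and 2 counts in aged and 116, 166 and 50 counts in aged+Ri libraries (edgeR adjusted p = 0.335), up to 3.26 CPM. Cdkn2b passed with DESeq2 (adjusted p = 0.000534) and limma-voom (adjusted p = 0.0144). The inhibitor libraries were above the untreated aged ones for Hes1 and for Cdkn2b alike. Fn1, the fibronectin gene, was at 2.18, 0.485 and 1.37 CPM in young, 4.78, 9.72 and 7.41 CPM in aged, and 17.6, 17.3 and 22.2 CPM in aged+Ri libraries. Its 3 groups did not overlap (edgeR adjusted p = 0.0541 for aged+Ri against young). Fn1 passed there with DESeq2 (adjusted p = 2.59e-07), limma-voom (0.042), edgeR's newer quasi-likelihood method (0.0312) and the stricter filter (0.0496), where limma-voom called 4.26% and the newer method 2.81% of all genes. It did not pass in the other alternatives. Ccn2, often used as a readout of TGF-beta and YAP, had at most 17 counts in any library.

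In the branch of the receptors that does not run through SMADs, which includes the kinase TAK1, 12 genes were tested. At an unadjusted p under 0.05, 0 were higher and 1 was lower by age, beside 6.08% and 10.1% of all genes. With the inhibitor 0 were higher and 1 was lower, beside 4.24% and 4.89%. Tab2, an adaptor of TAK1, was at 144, 176 and 160 CPM in young and 74.9, 63.8 and 57.5 CPM in aged libraries (log2 -1.29 ± 0.30; edgeR adjusted p = 0.173, DESeq2 adjusted p = 6.62e-06). Mapk14, the gene of the kinase p38 alpha, was at 85.1, 86.8 and 73.3 CPM in aged and 32, 44.5 and 31.2 CPM in aged+Ri libraries. All 3 inhibitor libraries were lower (log2 -1.19 ± 0.34; edgeR adjusted p = 0.346, DESeq2 adjusted p = 0.0015), and young libraries, at 79.4, 89.9 and 86.1 CPM, lay near the untreated aged ones.

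Likeness of pattern was described by Pearson's correlation of log2 CPM over the 9 libraries, among 9749 other genes with a mean of at least 5 CPM. For Smad4 the closest genes were Hipk3, Pum2 and Rnf44 (r = 0.968, 0.966 and 0.962), each at a higher mean in young than in both other groups. For Tgfbr1 they were Zfp119a, Fcho2 and Lin7c (r = 0.949, 0.936 and 0.935), each with its lowest mean in aged cells. For Eng they were Fmnl1, Il27ra and Fads1 (r = 0.959, 0.953 and 0.951), each with its highest mean in aged cells. The 9 points share group, depth and library effects, and these genes were picked as the highest of all those ranked, so the values are a description.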

How the data were processed

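RNA sequencing of 9 LT-HSC libraries was deposited as 1 table of estimated counts per gene symbol. The authors deposited estimated counts that are not all whole numbers (by library, 71.6% to 80.9% are whole within 0.005), and how the fractions arose is not given in the sources used here. The build GRCm38 and the tools STAR 2.7.0, cutadapt 1.18, featureCounts, SAMtools 1.14 and R 4.2.0 are listed, per the submitters' processing notes. Per the labels' protocols, cDNA came from SMART-Seq v4 and the sequencing libraries from Nextera XT.

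Here the counts were rounded to whole numbers, filtered with filterByExpr, which left 15127 genes, scaled by TMM and fitted as group means over all 9 libraries with edgeR 4.0.16 (glmQLFit, robust; R 4.3.3), with 6 residual degrees of freedom. Tests were two-sided, with Benjamini-Hochberg adjustment over all genes tested and a threshold of 0.05. CPM per kb divides by the union of exons in GENCODE M21. Intervals of a log2 change are 95% intervals from its SE, and count intervals are exact Poisson and cover counting error only. Alternatives were DESeq2 1.42.0, its size factors, limma 3.58.1 (voom with sample weights), edgeR's newer quasi-likelihood method, other filters, a replicate block, the batch as a covariate, fits of 2 groups at a time, and each library left out. A fit in which young 1 alone stands for the young group was added after the data were seen. The fit was tested on simulated data.

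The 10 genes and all lists were chosen with earlier results of these data known. Named pathway genes are from the 2 tested genes of each list with the smallest p in each comparison, and any that passed. Same-numbered libraries of different groups are not described as paired, so no block was used.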

Additional observations from a re-analysis of the deposited data

How the results depend on the processing

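The number of genes called depended on the method. For aged against young it was 5 in edgeR, 744 with DESeq2, 18 with limma-voom, 21 with edgeR's newer quasi-likelihood method, 20 without a filter, 1 with only the 2 groups compared, 11 with the sequencing batch as a covariate (young 1 left out) and 358 with young 1 alone in its group. Leaving out 1 library gave 2 to 80. For aged+Ri against aged it was 0 in edgeR, 321 with DESeq2, 55 with limma-voom, 4 with the newer method, 11 without a filter, 2 with only the 2 groups, 2 with the replicate block and 16 with the batch, and leaving out 1 library gave 0 to 6. For aged+Ri against young it was 219 in edgeR, 1829 with DESeq2, 644 with limma-voom, 425 with the newer method, 57 with only the 2 groups, 101 with the batch and 735 with young 1 alone, and leaving out 1 library gave 18 to 532. Of the 10 genes, 0 were called in any comparison in edgeR, 2 with DESeq2 in aged against young and 2 in aged+Ri against young, and 0 to 1 in the latter when 1 library was left out. A fit with young 1 alone assumes that it varies like the other groups.

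The sign of some changes differed between settings. In aged against young, with young 1 alone, Tgfbr2 was at 0.16, Smad7 at -0.11 and Ski at 0.24. Smad7 was at -0.025 with DESeq2 and its size factors and -0.051 with the stricter filter. In aged+Ri against young, Tgfbr1 was at -0.017 with DESeq2 and its size factors, -0.01 with limma-voom, -0.07 with the stricter filter, -0.14 with the batch and -0.10 with young 1 alone. There, Eng was at 0.12 and Smad3 at -0.02 with young 1 alone, Ski at -0.38 with the batch and Skil at 0.008 with the replicate block. With 1 library left out, the log2 changes in aged against young ran from -0.614 to 0.468 for Tgfbr2, -0.526 to 0.114 for Smad3, -0.019 to 0.271 for Smad7 and -0.503 to 0.029 for Ski. In aged+Ri against aged they ran from -0.07 to 0.411 for Tgfb1, -1.447 to 0.054 for Smad7 and -1.375 to 0.323 for Smad6, a gene of the pathway lists. In aged+Ri against young they ran from -0.182 to 0.264 for Tgfbr1, -0.252 to 0.268 for Eng, -0.051 to 0.59 for Smad3, -1.364 to 0.161 for Smad7, -0.095 to 0.459 for Ski and -0.201 to 0.206 for Skil. The causes were not tested.

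The replicate block changed no call of a member. Libraries that share a number had correlations of their deviations from the group means between -0.073 and 0.146. Aged 2 correlated best with aged+Ri 3 (0.197), and these share sequencing batch 2. The other pairs within batch 2 were between -0.131 and 0.098, and young 2 with aged 1, from different batches, was at 0.18. With 3 libraries a group, such values cannot settle whether the numbers pair the libraries. Without a filter the median of all genes for aged against young was -0.57, against -0.13 with it, and for aged+Ri against young -0.86, against -0.24. With 3 libraries a group, 95% intervals of the 10 genes were 1.41 to 3.56 log2 units wide.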
